A study of Homo sapiens with 4 samples.

Results

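The DNAJ co-chaperones were read as all genes whose symbol is DNAJ followed by A, B or C, a number and at most 1 further letter. The rule found 45 genes among the 57820 in the deposited table, 4 of class A, 13 of class B and 28 of class C. The study sequenced RNA of a human renal carcinoma cell line carrying either a short hairpin RNA against GLUD1, the mitochondrial glutamate dehydrogenase (shGLUD1, 2 libraries), or a non-targeting hairpin (shNT, 2 libraries). Cells of both groups were kept in serum-containing DMEM and then went 12 h without amino acids, so the hairpins were compared under starvation and no fed cells were set beside them. The labels do not say whether replicates were separate cultures, whether the lines were clones or pools, or which hairpin sequence was used, and the spread behind each p-value may therefore be technical.

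J-domain proteins bind HSP70 chaperones through a conserved J domain, bring them unfolded clients and speed up their ATP hydrolysis. Class A members carry a zinc-finger-like region and a glycine and phenylalanine rich stretch beside the J domain, class B members the glycine and phenylalanine rich stretch without the zinc finger, and class C members only the J domain in otherwise unlike proteins. Some members, DNAJB1 foremost, are induced with HSP70 by heat shock factor when proteins misfold in the cytosol. Others serve BiP (HSPA5), the HSP70 of the endoplasmic reticulum, or mortalin (HSPA9), that of mitochondria, and several class C members serve one task such as splicing, endosome sorting or ribosome assembly.

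Values are TPM (transcripts per 1000000, per length and within each library), and fold changes are log2 of TPM + 1, shGLUD1 over shNT, which understates the change of genes near or under 1 TPM. A gene was tested where its mean over the 4 libraries was at least 1 TPM, and "rose" or "fell" means an adjusted p under 0.05 in a limma fit over all 12524 genes tested. The log2 fold change of the median gene was 0.63. A rescaled value, with libraries set to equal median ratios, is therefore given beside many fold changes. Rescaling shifts nearly all genes down alike, so a fall on TPM remains a fall by construction. TPM are shares of the RNA of a library, so a gene's fall cannot be told apart from a rise of the other RNA. Nor can less RNA of a gene per cell be told apart from fewer cells expressing it. GLUD1 itself measured 13.5 and 19.8 TPM under the label shGLUD1, against 18.1 and 17.4 TPM in shNT. Its log2 fold change was -0.11 with an SE of 0.19 (limma adjusted p = 0.631), and the second shGLUD1 library was above both controls. Its rescaled value was -0.84 (limma adjusted p = 0.00201), and without shGLUD1 replicate 1 its unrescaled value was 0.15. Directions below are drawn from the labels. Of 7 markers of the renal line, PAX8 (5.18 to 8.75 TPM), CA9, VIM, KRT8 and KRT18 were detected at a mean of at least 1 TPM. VIM (1.86, rescaled 1.08) and CA9 (1.53, rescaled 0.77) rose and KRT18 (-0.64, rescaled -1.04) fell. KRT8 rose on TPM (0.53) and missed the threshold after rescaling (-0.23), and PAX8 was not called on TPM (-0.38) and was lower after rescaling (-1.06). PAX2 was at most 0.12 TPM and CDH6 at most 0.01 TPM in any library. PTPRC, a blood cell marker, was at most 0.01 TPM, while COL1A1, a fibroblast collagen gene, was at 4.9 and 5.19 TPM in shGLUD1 and 2.7 and 1.63 TPM in shNT; its part in the results was not tested.

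The promoters are shown for 3 of the members that carried the cytosolic pattern described below. DNAJB1 had the largest fall of the family, DNAJA1 fell, and DNAJB6 rose on TPM and stood at the median gene after rescaling. Each is the part of the 250 bases before a RefSeq start of the gene (GRCh38.p14) that lies outside the gene's annotated exons. It is written 5′ to 3′ on the gene's strand. The first listed start of each gene was used, and other starts were not searched. DNAJB1 is chr19:14529309-14529521 on the minus strand, DNAJA1 is chr9:33025023-33025210 on the plus strand and DNAJB6 is chr7:157336754-157336965 on the plus strand. The DNAJB1 and DNAJB6 stretches are intronic in longer GENCODE transcripts of these genes, and the DNAJA1 stretch lies just before the gene. Capitals mark CCAAT boxes on either strand and facing pairs of the heat shock unit, GAANNTTC or TTCNNGAA.
DNAJB1: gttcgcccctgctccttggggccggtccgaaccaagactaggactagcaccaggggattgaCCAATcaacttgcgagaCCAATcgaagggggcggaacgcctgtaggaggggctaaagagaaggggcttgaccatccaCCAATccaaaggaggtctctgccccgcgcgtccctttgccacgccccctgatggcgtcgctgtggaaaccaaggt
DNAJA1: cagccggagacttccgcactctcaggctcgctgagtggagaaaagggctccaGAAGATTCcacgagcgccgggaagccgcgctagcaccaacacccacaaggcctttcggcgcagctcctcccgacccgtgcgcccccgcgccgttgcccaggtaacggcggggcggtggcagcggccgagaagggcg
DNAJB6: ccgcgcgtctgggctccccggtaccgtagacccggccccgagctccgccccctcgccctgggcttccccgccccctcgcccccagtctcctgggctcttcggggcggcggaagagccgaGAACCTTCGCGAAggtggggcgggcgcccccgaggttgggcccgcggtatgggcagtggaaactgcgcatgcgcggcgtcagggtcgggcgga
The DNAJA1 window held 1 facing pair, GAAGATTC, and the DNAJB6 window held 2 that overlap, GAACCTTC and TTCGCGAA. The DNAJB1 window held 3 CCAAT boxes and no exact pair. The DNAJB1 locus spans chr19:14514770-14529770 on the minus strand, with this window near its 5′ end. The result therefore does not cover any DNAJB1 start further downstream. Of the other members of that pattern, DNAJA2, DNAJB2 and DNAJB4 held no searched motif in the full 250 bases, and DNAJB5 held only CCAAT boxes. Over the full 250 bases, either pair was present in 4 of the 40 members found in the RefSeq promoter table, against 11.7% of all 27305 promoters searched. Both pairs read the same on either strand. At the starts searched, the pairs lay in 1 of the 6 members that fell and in 1 of the 16 matched members that rose. At least 1 CCAAT box on either strand was found in 17 of the 40 members (42.5%) and in 33.0% of all promoters. At least 2 were found in 4 of the 40 members against 10.0% of promoters, and at least 3 in 3 of the 40 against 3.09%. The endoplasmic reticulum stress element and the CHOP-ATF element TGATGNAA were found in 0 of the 40 members, against 0.0806% and 3.19% of all promoters. Matches are descriptions of these letters, and no match says nothing of a factor.

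Of the 45 members, 36 passed the filter of 1 TPM. In shGLUD1 17 of them rose on TPM, 6 fell and 13 were not called. Among all genes tested 56.7% rose and 7.77% fell. The member shares were 47.2% and 16.7%, and the median member had a log2 fold change of 0.36, below the 0.63 of all genes. After rescaling, 5 members were higher and 16 lower, against 22.7% and 28.4% of all genes; the member shares were then 13.9% and 44.4%. All 5 had risen on TPM and none of the other 12 risers was then lower. The groups did not overlap in 28 of 36 members, or 77.8%, against 83.4% of all genes tested, so separation as such was no more frequent in the family. The 9 members under the filter were DNAJA4, DNAJB3, DNAJB7, DNAJB8, DNAJB13, DNAJC5B, DNAJC5G, DNAJC27 and DNAJC28. Of these DNAJB3, DNAJB8 and DNAJC5G were listed at 0 in every library, and DNAJB7 was above 0 in a single shNT library, at 0.02 TPM. DNAJA4 was at most 0.09 TPM, DNAJB13 at most 0.33 TPM and DNAJC5B at most 0.58 TPM. DNAJC28 was at 0.74 and 0.48 TPM in shGLUD1 and at 0.29 and 0.96 TPM in shNT, and DNAJC27 at 0.39 and 0.23 TPM in shGLUD1 and at 0.68 and 1.22 TPM in shNT.

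**Figure D1:**
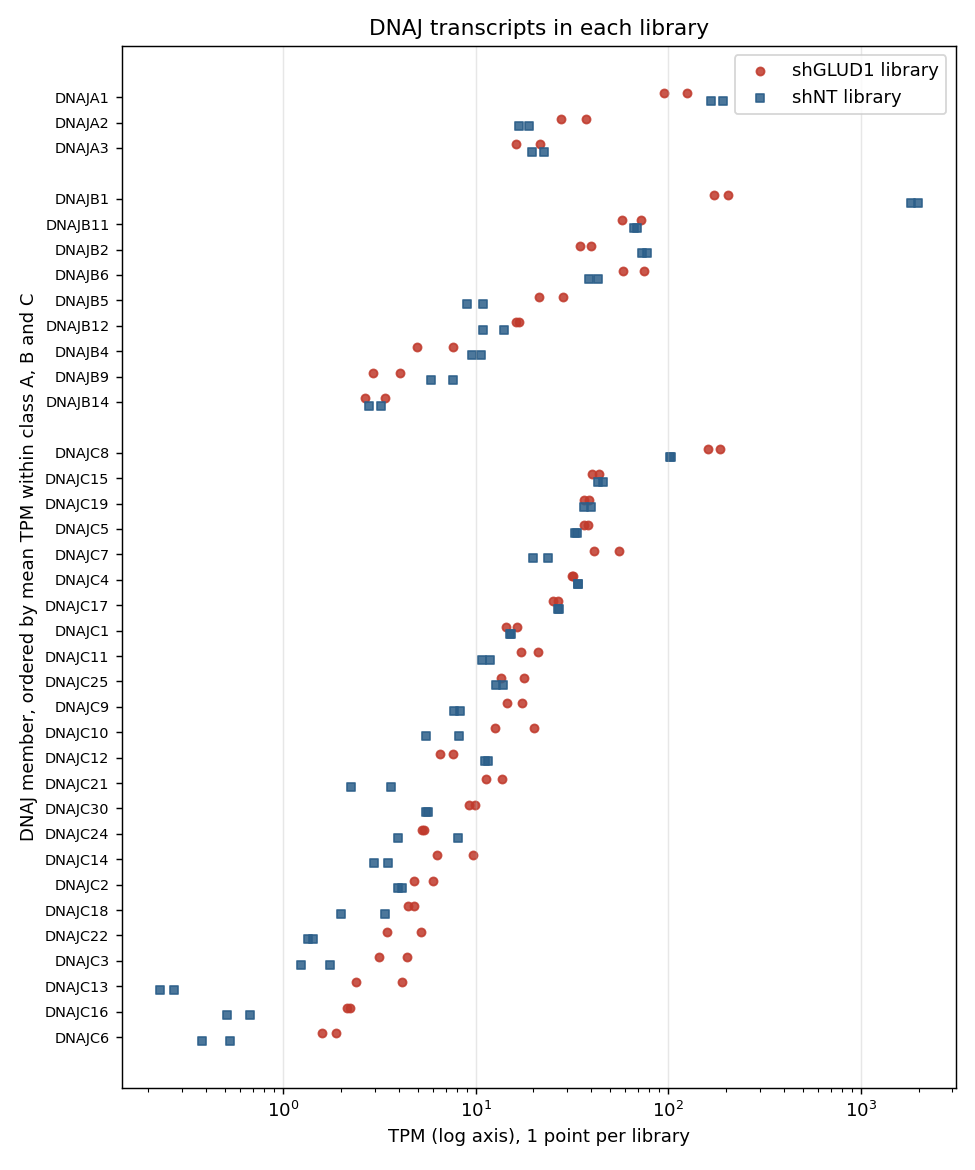
TPM on a log axis (x) of the 36 tested DNAJ members (y, by class and mean level); red circles are the 2 shGLUD1 libraries and blue squares the 2 shNT libraries. DNAJB1 lies at 174 and 204 TPM in shGLUD1 and at 1978 and 1817 TPM in shNT, far above every other member in shNT only.

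The summed level of the family was lower in shGLUD1 with either scaling, and without DNAJB1 its direction depended on the scaling. The 45 members summed to 1027 and 1220 TPM in shGLUD1, against 2807 and 2680 TPM in shNT, a ratio of 0.41. Without DNAJB1 the sums were 853.6 and 1016 TPM in shGLUD1 and 828.5 and 862.8 TPM in shNT, and the groups overlapped. After rescaling the same sums were 695.9 and 712.8 in shGLUD1 and 1082 and 1110 in shNT, a log2 ratio of -0.64, and the groups stood apart. DNAJB1, the heat-inducible HSP40 that partners cytosolic HSP70, made up 16.9% and 16.7% of the family in shGLUD1 and 70.5% and 67.8% in shNT. Rescaling a library by a single factor does not change this share. Class B made up 36.7% ± 0.48 of the family in shGLUD1 and 77.4% ± 1.5 in shNT, and class C took 48.9% ± 1.6 in shGLUD1 and 14.6% ± 0.57 in shNT (SD, n = 2 each). For a single value such as these sums, an exact two-sided permutation of 2 against 2 cannot give a p below 0.333.

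**Figure D2:**
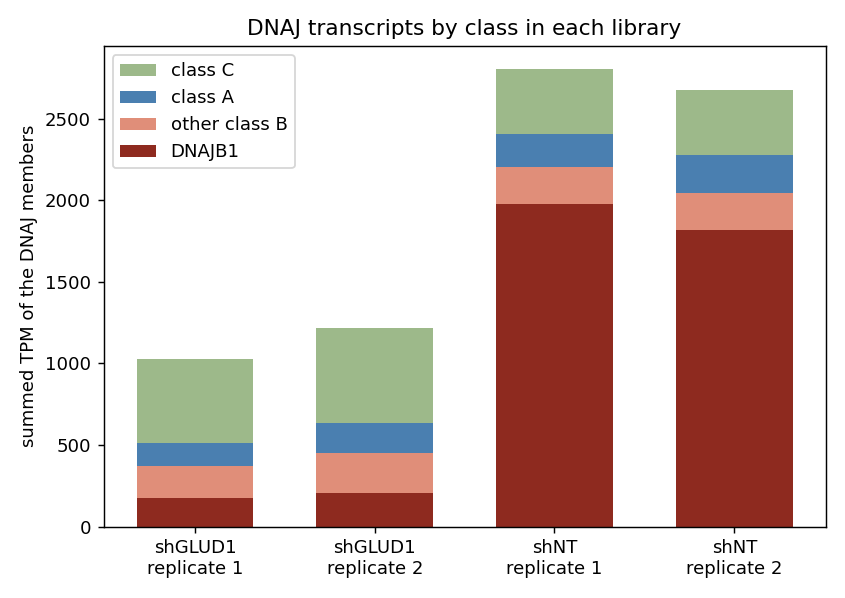
Summed TPM (y) of DNAJ members in each library (x), stacked as DNAJB1, other class B, class A and class C. The DNAJB1 segment stands at 174 and 204 TPM in the shGLUD1 bars, against 1978 and 1817 TPM in the shNT bars, while the remainder lies between 828.5 and 1016 TPM in all 4 (after rescaling, not drawn, it is lower in shGLUD1).

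Among cytosolic and nuclear members, the general folding co-chaperones split in direction on TPM. DNAJB1 (ENSG00000132002, chr19:14514770-14529770, minus strand, GRCh38) was at 174 and 204 TPM in shGLUD1 and at 1978 and 1817 TPM in shNT. It was 10.05-fold lower by mean TPM, with -3.33 on the log2 scale (SE 0.10, limma adjusted p = 7.5e-09) and a rescaled value of -4.10. Only 12 of the 12524 genes tested had a lower value, since it ranked 13 from the bottom. By mean level it stood at rank 754 of all genes in shGLUD1 and at rank 92 in shNT. In both groups it was the most abundant member, but in shGLUD1 DNAJC8 followed closely. The exons of DNAJB1 share 211 bases, 5.75% of their length, with TECR on the opposite strand. TECR had 235 and 226 TPM in shGLUD1 and 170 and 166 TPM in shNT. Strand use in counting is not given in the sources used here. Among members that rose, opposite-strand genes shared larger parts of the exons of DNAJC11 (27.92%, THAP3), DNAJC9 (23.99%, FAM149B1), DNAJC14 (21.95%, ORMDL2) and DNAJC30 (14.45%, BUD23). ORMDL2 was higher in shGLUD1 and THAP3 slightly so, while FAM149B1 and BUD23 overlapped between groups. The part of these overlaps in the calls was not tested.

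DNAJB2, a co-chaperone with ubiquitin-binding motifs that sends clients towards the proteasome, was at 35.0 and 39.6 TPM in shGLUD1 and at 73.4 and 77.3 TPM in shNT. It fell by 0.997 on the log2 scale (SE 0.12, limma adjusted p = 7.3e-05, rescaled -1.76). DNAJA1, a class A co-chaperone of cytosolic HSP70, was at 95.8 and 126 TPM in shGLUD1 and at 167 and 194 TPM in shNT, and fell by 0.71 (SE 0.14, adjusted p = 0.00110, rescaled -1.48). Both groups stood apart in each gene, and both calls held with each library left out. DNAJB4, a close relative of DNAJB1, was at 4.98 and 7.67 TPM in shGLUD1 and at 9.64 and 10.7 TPM in shNT, a log2 fold change of -0.63 (SE 0.23, adjusted p = 0.0298). That call was lost without shGLUD1 replicate 1 (-0.36, adjusted p = 0.128), shNT replicate 1 (-0.70, 0.101) or shNT replicate 2 (-0.56, 0.188).

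The other cytosolic folding members had the opposite sign on TPM. DNAJA2, the second class A co-chaperone of the cytosol, was at 27.8 and 37.7 TPM in shGLUD1 and at 16.8 and 18.9 TPM in shNT, and rose by 0.82 (SE 0.17, limma adjusted p = 0.00175), and missed the threshold after rescaling at 0.078. DNAJB6, which suppresses aggregation of polyglutamine proteins, was at 58.6 and 74.9 TPM in shGLUD1 and at 39.0 and 43.3 TPM in shNT, and rose by 0.67 (adjusted p = 0.00190), while its rescaled value was -0.088, of the other sign and not passing. DNAJB5, like DNAJB4 a close relative of DNAJB1, was at 21.5 and 28.5 TPM in shGLUD1 and at 10.9 and 9.03 TPM in shNT. It rose by 1.24 (SE 0.19, adjusted p = 2.5e-04) and remained higher after rescaling (0.51, adjusted p = 0.0227). Ratios within a library are not changed by rescaling, and they show relative change only, not the direction of either gene. DNAJA1 was 3.45 and 3.34 times DNAJA2 in shGLUD1 and 9.95 and 10.2 times in shNT. DNAJB4 was 0.232 and 0.269 times DNAJB5 in shGLUD1 and 0.885 and 1.19 times in shNT. DNAJB1, which fell as DNAJA1 did, was 1.81 and 1.62 times DNAJA1 in shGLUD1 and 11.8 and 9.37 times in shNT.

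Of the 7 tested class C members of the cytosol and nucleus, 4 rose and none fell on TPM, which is 57.1% beside the 56.7% of all genes that rose. After rescaling 1 was higher and 1 lower. DNAJC21 (ENSG00000168724, chr5:34929559-34958964, plus strand), which acts in maturation of the large ribosomal subunit in the cytosol, was at 11.3 and 13.8 TPM in shGLUD1 and at 2.25 and 3.64 TPM in shNT. It had the largest rise of the family on this scale (1.80, SE 0.24, limma adjusted p = 1.2e-04) and remained higher after rescaling (1.14, adjusted p = 0.00208). DNAJC2, the ribosome-bound partner of HSPA14, was at 4.81 and 6.01 TPM in shGLUD1 and at 4.16 and 3.98 TPM in shNT and was not called (0.33, adjusted p = 0.214).

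DNAJC7, which passes clients between HSP70 and HSP90, was at 41.4 and 55.4 TPM in shGLUD1 and at 23.9 and 19.9 TPM in shNT, and rose by 1.10 (adjusted p = 2.5e-04, rescaled 0.35 and not passing). DNAJC8, a splicing-associated protein, was at 161 and 187 TPM in shGLUD1 and at 103.5 and 102.7 TPM in shNT, and rose by 0.74 (adjusted p = 2.0e-04), with -0.027 after rescaling, not passing, and 0.51 under quantile normalization, passing (adjusted p = 0.00530). DNAJC9, a co-chaperone for histones H3 and H4, was at 14.6 and 17.4 TPM in shGLUD1 and at 7.71 and 8.35 TPM in shNT, and rose by 0.91 (adjusted p = 0.00148, rescaled 0.19 and not passing). All of these groups stood apart. DNAJC17, a nuclear RNA-binding protein, was nearly level, at 25.3 and 26.7 TPM in shGLUD1 and 27.1 and 26.8 TPM in shNT (-0.052), and its rescaled value of -0.80 passed as lower. DNAJC24, a diphthamide synthesis factor, was at 5.25 and 5.4 TPM in shGLUD1 and at 8.15 and 3.95 TPM in shNT, with overlapping groups and no call. Its log2 fold change of -0.090 turned to 0.35 without shNT replicate 1.

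In the endoplasmic reticulum, 5 of 6 tested class C members rose on TPM and none fell, and of 4 class B members none rose and 1 fell, beside 56.7% and 7.77% of all genes. After rescaling 1 class C member was higher and 1 lower, and 3 class B members were lower. The difference between the classes was not tested. DNAJC16, among these risers and the class C member higher after rescaling, passed the filter only through shGLUD1, so its call is no support for these counts. DNAJB9 (ERdj4), a BiP co-chaperone induced by the unfolded protein response, was at 2.93 and 4.03 TPM in shGLUD1 and at 5.87 and 7.6 TPM in shNT, and fell by 0.79 on the log2 scale (SE 0.24, limma adjusted p = 0.0140, rescaled -1.42). The call was lost without shGLUD1 replicate 1 (-0.61, adjusted p = 0.0670) or shNT replicate 2 (-0.63, 0.182). DNAJB11 (ERdj3), a soluble BiP co-chaperone that binds clients, was at 57.6 and 72.2 TPM in shGLUD1 and at 68.9 and 66.9 TPM in shNT, with overlapping groups and a log2 fold change of -0.072 (adjusted p = 0.647). It was lower after rescaling (-0.84, adjusted p = 6.0e-04). BiP itself, HSPA5, fell, and DNAJB11 was 0.222 and 0.210 times HSPA5 in shGLUD1 and 0.117 and 0.1204 times in shNT. DNAJB12, at 16.2 and 16.8 TPM in shGLUD1 and 14.1 and 10.9 TPM in shNT, and DNAJB14, at 2.67 and 3.39 TPM in shGLUD1 and 2.79 and 3.24 TPM in shNT, are membrane-bound members that act in degradation of membrane proteins. Neither was called (0.38, adjusted p = 0.0819, and 0.0019, adjusted p = 0.995), with rescaled values of -0.34 and -0.58, of which the second passed.

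DNAJC10 (ERdj5), a disulfide reductase of the lumen, was at 12.7 and 20.1 TPM in shGLUD1 and at 5.5 and 8.19 TPM in shNT, and rose by 1.14 (SE 0.25, limma adjusted p = 0.00235). DNAJC14, anchored in the membrane, was at 6.33 and 9.66 TPM in shGLUD1 and at 3.52 and 2.98 TPM in shNT, and rose by 1.06 (adjusted p = 0.00340). The opposite-strand ORMDL2, which shares 21.95% of its exonic bases, was at 36.5 and 39.3 TPM in shGLUD1 and at 18.8 and 19.0 TPM in shNT. DNAJC16, also membrane-anchored, was at 2.22 and 2.16 TPM in shGLUD1 and at 0.67 and 0.51 TPM in shNT, and rose by 1.01 (adjusted p = 0.00439). DNAJC16 alone of these 5 remained higher after rescaling (0.59, adjusted p = 0.0496), but under quantile normalization it was not called (0.41, adjusted p = 0.150). The others had rescaled values between 0.035 and 0.43. DNAJC3 (p58IPK), a BiP co-chaperone of the lumen, was at 3.16 and 4.43 TPM in shGLUD1 and at 1.24 and 1.75 TPM in shNT, and rose by 0.94 (adjusted p = 0.00851). That call was lost without shGLUD1 replicate 2 (0.75, adjusted p = 0.0506) or shNT replicate 1 (0.79, 0.0938). DNAJC18 was at 4.48 and 4.8 TPM in shGLUD1 and at 2.0 and 3.39 TPM in shNT and passed narrowly (0.64, adjusted p = 0.0488), though its sign turned under quantile normalization (-0.092). It lost its call without shGLUD1 replicate 1 (0.68, adjusted p = 0.102), shGLUD1 replicate 2 (0.59, 0.149) or shNT replicate 1 (0.36, 0.465). DNAJC1, which binds ribosomes at the membrane, was at 14.4 and 16.5 TPM in shGLUD1 and at 15.3 and 15.1 TPM in shNT, with no call on TPM (0.019) and a rescaled value of -0.71 that passed.

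**Figure D3:**
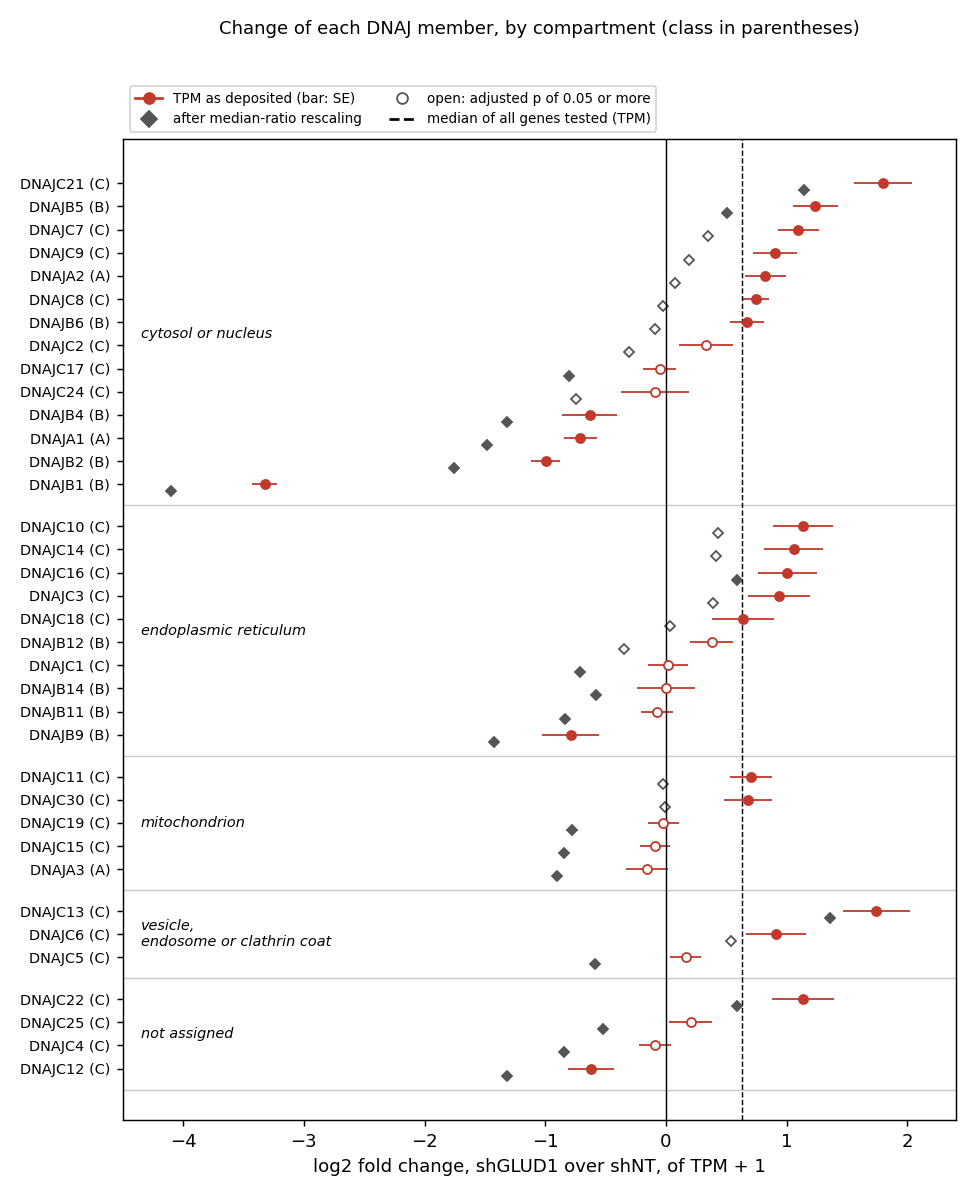
Log2 fold change of TPM + 1, shGLUD1 over shNT (x), for the 36 tested members grouped by compartment (y); red points are TPM as deposited with the SE as bar, grey diamonds the rescaled values, and open symbols did not pass. The median gene on TPM is the dashed line at 0.63. DNAJB1 lies at -3.33, and the diamonds of the 17 members that rose lie between -0.088 and 1.36, with 5 of them still passing as higher.

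The 5 mitochondrial members summed to 125 and 129.7 TPM in shGLUD1 and to 119 and 123.1 TPM in shNT, and after rescaling to 101.9 and 91.0 in shGLUD1 and to 155.4 and 158.4 in shNT. On TPM 2 of them rose and none fell. DNAJC19, a part of the motor that imports proteins across the inner membrane, was at 38.7 and 36.8 TPM in shGLUD1 and at 36.8 and 39.9 TPM in shNT. Its relative DNAJC15 was at 43.6 and 40.3 TPM in shGLUD1 and at 43.3 and 46.1 TPM in shNT. DNAJA3, the class A co-chaperone of mortalin, was at 16.3 and 21.5 TPM in shGLUD1 and at 22.6 and 19.6 TPM in shNT. In all 3 genes the groups overlapped and no call was made on TPM, and after rescaling all 3 were lower, by log2 fold changes between -0.90 and -0.78. DNAJC11, an outer membrane protein tied to cristae organization, was at 17.2 and 21.1 TPM in shGLUD1 and at 10.8 and 11.8 TPM in shNT. It rose by 0.71 (limma adjusted p = 0.00467), with a rescaled value of -0.021, and missed the threshold without shNT replicate 1 (0.64, adjusted p = 0.0509). DNAJC30, which binds ATP synthase, was at 9.2 and 9.96 TPM in shGLUD1 and at 5.55 and 5.66 TPM in shNT. It rose by 0.68 (adjusted p = 0.0114), with a rescaled value of -0.0045, and was not called without shNT replicate 1 (0.67, adjusted p = 0.112) or shNT replicate 2 (0.69, 0.0920).

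In the vesicle and endosome group, the rises were in scarce transcripts. DNAJC13 (RME-8), which acts in sorting at early endosomes, was at 2.39 and 4.17 TPM in shGLUD1 and at 0.27 and 0.23 TPM in shNT. It rose by 1.74 (SE 0.28, limma adjusted p = 3.4e-04, rescaled 1.36), and its mean TPM was 13.1 times that of shNT. DNAJC13, DNAJC6 and DNAJC16 were under 1 TPM on average in shNT and passed the filter only through shGLUD1. They could therefore be tested only by being higher there. These 3 calls are no support for the count of 17, for the count of members higher after rescaling or for the counts by class and compartment. Under a pseudocount of 0.1 TPM the log2 fold change of DNAJC13 was 3.22. DNAJC6 (auxilin), which uncoats clathrin vesicles, was at 1.6 and 1.88 TPM in shGLUD1 and at 0.38 and 0.53 TPM in shNT (0.91, adjusted p = 0.00797, rescaled 0.54 and not passing). It was not called without shNT replicate 1 (0.84, adjusted p = 0.0517). DNAJC5 (cysteine string protein), the most abundant of this group, was at 38.5 and 36.6 TPM in shGLUD1 and at 33.8 and 32.9 TPM in shNT, did not pass on TPM (0.17, adjusted p = 0.272) and was lower after rescaling (-0.59, adjusted p = 0.00670).

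Of the 4 tested members that were given no compartment, DNAJC12, which binds aromatic amino acid hydroxylases, fell. It was at 6.52 and 7.66 TPM in shGLUD1 and at 11.2 and 11.6 TPM in shNT (-0.62, SE 0.19, limma adjusted p = 0.0152, rescaled -1.31). The call was lost without shNT replicate 1 (-0.64, adjusted p = 0.121) or shNT replicate 2 (-0.60, 0.147), and with trends in transcript length and GC content removed (-0.25, 0.272). DNAJC22 was at 3.45 and 5.19 TPM in shGLUD1 and at 1.35 and 1.43 TPM in shNT, and rose by 1.14 (adjusted p = 0.00290, rescaled 0.59 and passing). Under quantile normalization DNAJC22 was not called (0.45, adjusted p = 0.0911). DNAJC4 was at 31.6 and 32.2 TPM in shGLUD1 and at 34.00 and 34.02 TPM in shNT, and DNAJC25 at 13.6 and 17.8 TPM in shGLUD1 and at 14.0 and 12.8 TPM in shNT. Neither was called on TPM (-0.090 and 0.20), and DNAJC25 was lower after rescaling (-0.52). DNAJC4 was likewise lower after rescaling (-0.84) and higher with length and GC trends removed (0.45, adjusted p = 0.0189).

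Transcript length moved with the changes. Across the 36 tested members, Spearman's rho of the log2 fold change with annotated transcript length was 0.48, beside 0.39 across the 12258 tested genes with a length, where genes share the same 4 libraries and are not replicates. The 17 members that rose had a median length of 3416 nt and the 6 that fell 2548 nt. The part of length in the results was not tested beyond the fit with its trend removed, in which 17 members rose and 5 fell. There DNAJC12 was no longer called as lower and DNAJC18 no longer as higher, and DNAJC4 was called as higher.

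**Figure D4:**
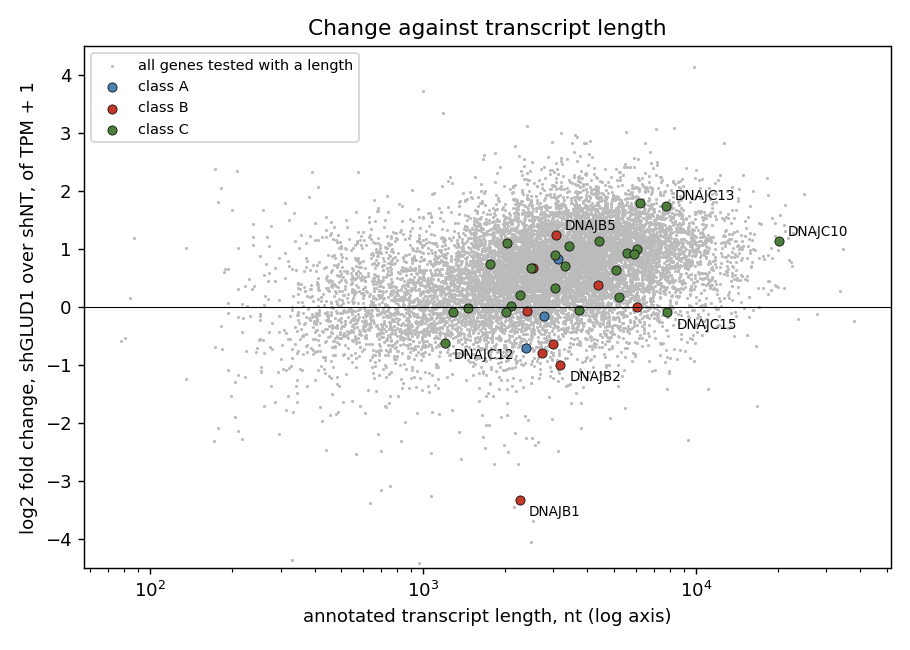
Log2 fold change of TPM + 1, shGLUD1 over shNT (y, drawn from -4.5 to 4.5, with 5 genes outside), against the annotated transcript length in nt on a log axis (x); grey points are all tested genes with a length and coloured points the DNAJ members by class. Members follow the upward drift of the grey points (rho 0.48 beside 0.39), and DNAJB1 lies far below it at -3.33.

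The HSP70 partners and the exchange factors that complete the chaperone cycle were read beside the family. Of 13 tested HSP70 and HSP110 genes 5 fell and 3 rose, with a median log2 fold change of -0.20 (10 lower and 2 higher after rescaling). These shares, 38.5% and 23.1%, stand beside 7.77% and 56.7% of all genes that fell and rose, and after rescaling 76.9% and 15.4% stand beside 28.4% and 22.7%. Of 13 tested exchange factors and HSP70 co-chaperones 5 fell and 4 rose, with a median of 0.025 (9 lower and 2 higher after rescaling), which is 38.5% and 30.8%, or 69.2% and 15.4% after rescaling. The falls were led by the stress-inducible HSP70 genes HSPA6 (-7.77), HSPA1A (-4.04) and HSPA1B (-3.69) and by BAG3 (-2.38), an exchange factor of selective autophagy. HSPA6 was at 2.37 and 3.5 TPM in shGLUD1 and at 921.7 and 781.7 TPM in shNT. HSPA1A was at 0.5 and 0.82 TPM in shGLUD1 and at 25.3 and 27.3 TPM in shNT, and HSPA1B at 73.7 and 84.4 TPM in shGLUD1 and at 1110 and 959 TPM in shNT. BAG3 was at 24.9 and 28.1 TPM in shGLUD1 and at 144 and 139 TPM in shNT. In these 4 genes the groups lay far apart. HSPA1A and HSPA1B are near-identical, so the split of reads between them is uncertain. The rises were led by BAG5 (1.79), an exchange factor, HSPA4 (1.34), an HSP110 exchange factor, HSPA9 (1.32), the mitochondrial HSP70, and ST13 (1.23), which binds HSP70 and HSP90. BAG5 was at 3.9 and 6.67 TPM in shGLUD1 and at 0.83 and 0.71 TPM in shNT, and HSPA4 at 27.1 and 35.3 TPM in shGLUD1 and at 9.95 and 13.5 TPM in shNT. HSPA9 was at 94.8 and 133.8 TPM in shGLUD1 and at 41.6 and 47.6 TPM in shNT, and ST13 at 85.8 and 130.8 TPM in shGLUD1 and at 40.8 and 48.9 TPM in shNT. Rescaled, these 4 rises were between 0.46 and 1.29 and all passed. BAG5 and BAG4, both among the exchange factors that rose, averaged 0.77 and 0.96 TPM in shNT, and HSPA1A averaged 0.66 TPM in shGLUD1. Each passed the filter of 1 TPM only through the group where it was higher, so these calls are no support for the counts above.

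Constitutive HSC70, HSPA8, was at 1161 and 1391 TPM in shGLUD1 and at 1482 and 1447 TPM in shNT and was not called on TPM (-0.20, limma adjusted p = 0.0915), whereas it was lower after rescaling (-0.98). DNAJB1 was 0.150 and 0.147 times HSPA8 in shGLUD1 and 1.34 and 1.26 times in shNT. HSPA1B was 0.424 and 0.414 times DNAJB1 in shGLUD1 and 0.561 and 0.528 times in shNT. By their own levels, given above, both genes were lower in the shGLUD1 libraries. Summed over 14 genes, HSP70 and HSP110 transcripts were at 1729 and 2126 TPM in shGLUD1 and at 4324 and 3979 TPM in shNT, which was 168% and 174% of the DNAJ sum in shGLUD1 and 154% and 148% in shNT. The J-domain genes HSCB, SEC63 and GAK, which carry another symbol, were not called on TPM (0.019, 0.54 and 0.16). After rescaling HSCB (-0.73) and GAK (-0.58) passed as lower, and SEC63 (-0.096) did not pass.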

How the data were processed

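Per the labels' protocols, libraries were TruSeq V2. The authors deposited 1 table of TPM with a column per library, each summing to 1000000, with no scaling between libraries seen. Bowtie 0.12.2, hg38 and mm8 are named, with no role for any of them, per the submitters' processing notes. Quantifier and annotation: not given in the sources used here. Since TPM keep no read totals, depth is unknown and no counting interval can be given.

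Groups came from the sample titles. Values were analysed as log2(TPM + 1). Genes averaging 1 TPM or more were fitted with limma 3.58.1 in R 4.3.3 (variance trend, group as the only term), with Benjamini-Hochberg adjustment over all 12524 genes and a threshold of 0.05, two-sided. Rescaling used median ratios over genes above 0 in all libraries. The fit was tried on simulated data in which few genes changed and the groups had no shift, unlike these data. That run gives no measure of the calls made here.

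Members, classes, compartments, lists and motifs were chosen with earlier results of these data known. Compartments were assigned by hand from general knowledge. One further gene of the lists is not reported here. All members could be named; per-library values were given for the 4 largest changes and the 4 most abundant in a class or compartment and for members whose call changed on rescaling, and of the HSP70 list the 4 largest changes each way. Alternatives were a pseudocount of 0.1 TPM, no filter, a mean of at least 5 TPM, rescaling, quantile normalization, no variance trend, a replicate block and leaving out each library, and, added after seeing the data, removal of length and GC trends. Coordinates and lengths came from GENCODE release 29 (longest coding transcript), and promoters from RefSeq on GRCh38.p14, with the first listed start of each gene. Python 3.11.15, pandas 2.3.3 and matplotlib 3.10.9 were used for tables and figures.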

Additional observations from a re-analysis of the deposited data

How the results depend on the processing

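Depth is unknown for TPM, and with 2 libraries a group the calls borrow their spread from other genes. With a library left out, a group holds a single library and the calls rest on that borrowed spread still more. On TPM 7105 genes rose and 973 fell. Counts of calls depended most on the scaling. Rescaled, 2846 genes were higher and 3557 lower, and 5 members were higher and 16 lower. Under quantile normalization 2938 genes were higher and 2764 lower, and 5 members were higher and 17 lower. Only DNAJB5, DNAJC13 and DNAJC21 were higher under both scalings: DNAJC16 and DNAJC22 were so only when rescaled, DNAJC7 (0.57) and DNAJC8 (0.51) only under quantile normalization. DNAJC13 and DNAJC16 passed the filter only through shGLUD1, so their calls are no support for these counts. With a mean of at least 5 TPM, which leaves 7833 genes and 28 members, 4676 genes and 11 members rose. With length and GC trends removed 595 genes fell. Leaving out each library in turn gave 5530 to 7229 genes higher and 673 to 938 lower, and 12 to 16 members higher and 3 to 6 lower, with 3 lower without shNT replicate 2. The log2 ratio of the summed members was -1.29, rescaled -2.07, and -1.42 to -1.17 with a library left out. The DNAJB1 share differed by -52.3 percentage points, and by -53.7 to -51.0 with a library left out.

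Signs turned mostly in members that were not called on TPM. Rescaled, this held for DNAJB12 (-0.34), DNAJB14 (-0.58), DNAJC1 (-0.71), DNAJC2 (-0.31), DNAJC5 (-0.59) and DNAJC25 (-0.52), and for DNAJB6 (-0.088), DNAJC8 (-0.027), DNAJC11 (-0.021) and DNAJC30 (-0.0045), which had risen. Under quantile normalization it held for DNAJB12 (-0.30), DNAJB14 (-0.71), DNAJC1 (-0.65), DNAJC2 (-0.43), DNAJC5 (-0.37) and DNAJC25 (-0.47), and for DNAJC18 (-0.092) and DNAJC30 (-0.094), which had risen. With length and GC trends removed, DNAJB14 was at -0.043, DNAJC4 at 0.45 and DNAJC19 at 0.24. With a library left out, DNAJA3 ranged from -0.35 to 0.030, DNAJB11 from -0.23 to 0.089, DNAJB14 from -0.13 to 0.13, DNAJC1 from -0.075 to 0.11, DNAJC19 from -0.079 to 0.035, DNAJC24 from -0.53 to 0.35 and GLUD1 from -0.37 to 0.15. DNAJA1, DNAJB1, DNAJB2, DNAJB5, DNAJC13 and DNAJC21 kept sign and call under every alternative that could test them. DNAJC13 passed the filter of 1 TPM only through shGLUD1, so its kept call under that filter is no support. Without a filter, 5 members lost their calls, with 24169 genes tested. The cause of these shifts was not tested.

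Replicate numbers were not taken as pairs: the correlation of deviations between same-numbered libraries was 0.039. With the replicate number as a block, 17 members rose and 6 fell, the same counts as without it, and 7395 genes rose and 1061 fell. That fit takes nearly all its spread from other genes (DNAJB1 limma adjusted p = 1.1e-168), so the equal counts say little of the calls.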

Other observations

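Of 22 further entries whose symbol starts with DNAJ and that the rule leaves out, 17 were processed pseudogenes at no more than 0.46 TPM in any library, among them DNAJB1P1 at 0.07 and 0 TPM in shGLUD1 and 0.46 and 0.31 TPM in shNT. DNAJC27-AS1, antisense to DNAJC27, was at 5.72 and 6.77 TPM in shGLUD1 and at 15.1 and 12.0 TPM in shNT, above DNAJC27 itself in every library. DNAJC9-AS1 was at 0.02 and 0 TPM in shGLUD1 and at 1.16 and 1.75 TPM in shNT, while DNAJC9 was higher in shGLUD1. DNAJC3-AS1 was at 1.09 and 1.11 TPM in shGLUD1 and at 0.09 and 0.4 TPM in shNT. The read-through gene DNAJC25-GNG10 was at 1.18 and 1.01 TPM in shGLUD1 and at 0.07 and 2.8 TPM in shNT; it shares 358 exonic bases with DNAJC25, so how reads were split between both is uncertain. These genes were chosen after their values were seen.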
